A study of Mus musculus with 2 samples.

Results

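The inhibitor of DNA binding genes Id1, Id2, Id3 and Id4, the homeobox genes Msx1, Msx2 and Dlx5, the SMAD gene Smad9, and the transcription factor genes Atoh8 and Gata2 were taken by name as direct targets of BMP signalling through SMAD proteins. Each of these 10 genes had 1 probe, with 1 spot per array, out of 39429 probes on the array. All 10 probes were well above background in all 4 measured RNAs and were among the 22007 genes tested. On both arrays 9 of the 10 had the sign of the Bmp4 probe's ratio, beside 28.3% of all genes tested. Msx2, Smad9 and Id4 passed the test (limma, adjusted p under 0.05 over all genes), beside 0.882% of all genes called higher.

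Bone morphogenetic proteins are secreted ligands that bind paired serine/threonine kinase receptors, which phosphorylate SMAD1, SMAD5 and SMAD9. These bind SMAD4, enter the nucleus and switch on target genes, among which the Id genes are the most widely used readout. Id proteins bind basic helix-loop-helix (bHLH) transcription factors and keep them off DNA, Msx proteins are homeodomain repressors, and in the ureter Bmp4 is made by the mesenchyme around the epithelial tube, where smooth muscle forms.

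Total RNA came from ureters dissected from NMRI mouse embryos at E14.5, the urinary tubes between kidney and bladder. Bmp4cKO embryos had the genotype Tbx18(cre/+);Bmp4(fl/fl), with cre driven from 1 Tbx18 allele, so that the floxed Bmp4 alleles are recombined in Tbx18-expressing mesenchyme, while the other cells of the tissue keep them. Controls had the genotype Tbx18(+/+);Bmp4(fl/?), with no cre, at least 1 floxed Bmp4 allele and a second Bmp4 allele that the labels do not specify. Each of 2 two-colour arrays held 1 RNA of each genotype. Replicate 1, labelled female in both channels, had the control RNA in red (AlexaFluor647) and the Bmp4cKO RNA in green (AlexaFluor555), and replicate 2, labelled male in both channels, had the dyes exchanged. The question is how the target genes stand when Bmp4 is removed from the mesenchyme. The sources used here do not say whether embryos were pooled, and the p-values rest on no arrays other than these 2. In limma a gene's own spread (1 residual degree of freedom) counted less than a typical spread estimated from the genes tested (3.98 prior).

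The targeted gene went against its label. The Bmp4 probe above background had processed signals of 29491 and 27393 in the RNA labelled Bmp4cKO, against 3613 and 1973 in the RNA labelled control, a mean log2 ratio of 3.38 ± 0.48 (SD, n = 2; limma adjusted p = 0.017). It was therefore 10.4-fold higher where the label says that Bmp4 was removed. The sources used here do not say whether this probe lies in the deleted stretch. A probe outside that stretch would not report the deletion itself, and the 10.4-fold difference against the label remains either way. Of the 2 Bmp4 probes, the other had no signal well above background in the 4 RNAs. Tbx18, with 1 intact copy in Bmp4cKO embryos, had a mean of 0.97 ± 0.17 (SD, n = 2; limma adjusted p = 0.041). It too was higher where the label gives fewer intact copies, with log2 ratios of 0.85 and 1.08 on the arrays. Every ratio below divides the signal of RNA labelled Bmp4cKO by that of RNA labelled control, as the dye labels give it, and the authors' deposited table has the reverse sign, at folds of -8.16 and -13.9 for the same Bmp4 probe. All directions turn round if the dye labels are exchanged. On replicate 2, labelled male, an Xist probe read 1464 in the RNA labelled Bmp4cKO, against that label. In the RNA labelled control it read 4.31 and Ddx3y read 2720, as the label says, so this array set RNAs of unlike sex-linked signal against each other.

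Of 44397 spots per array, 1377 were controls, the share well above background was 69.3% to 74.6% by channel, and none was saturated. The median spot was 14.9 to 15.6 times its local background in green and 7.14 to 7.58 times in red, and the number of arrays, 2, limits the precision. The markers of the labelled tissue were measured. All 13 urothelial, all 8 ureteric mesenchyme and all 7 smooth muscle markers were above background in all 4 RNAs.

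The Id family was brighter in the RNA labelled Bmp4cKO at each of its 4 probes, and 1 of the 4, Id4, passed the test. The probes are shown by their first bases, because paralogues can only be told apart if their probes differ. All are 60 bases long, of which the first 30 are printed, with no part singled out in capitals.
Id1: attgttttacaatagttctatgggggtgag
Id2: tgagtgaaccttgtggactctttaattaga
Id3: tccgcatctcccgatccagacagctgagct
Id4: tgctaagtagaagagcaatcgtgaatccaa
The longest run that any pair of Id probes shared was 4 to 7 bases, and Id1 was the only one of the 4 whose probe shared a run of 15 bases with another probe on the array.

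Id1 encodes the family member most often read as a reporter of BMP signalling. Its processed signals, which are the deposited background-corrected intensities, were 12117 and 19595 in the RNA labelled Bmp4cKO, against 7095 and 6785 in the RNA labelled control. Both values of the first group lay above both of the second. Its log2 ratios of 0.85 (replicate 1) and 1.47 (replicate 2) averaged 1.16 ± 0.44 (SD, n = 2), a 2.24-fold difference. It missed the threshold, with a limma adjusted p of 0.057, and passed in 8 of 16 alternative analyses. The probe lies at chr2:152563083-152563142 in mouse build mm9, and no source used here places it, or the other probes, within the transcript.

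Id2, a regulator of progenitor and lymphoid cells among other types, had processed signals of 27937 and 43316 in the RNA labelled Bmp4cKO, against 16033 and 20275 in the RNA labelled control. The groups did not overlap, but the arrays differed in size, with log2 ratios of 0.55 and 1.33. The mean was 0.94 ± 0.55 (SD, n = 2; limma adjusted p = 0.12), or 1.92-fold. Its 95% interval ran from 0.41 to 1.48. The probe is at chr12:25778904-25778963 (mm9).

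Id3 had the brightest probe of the 10 and the smallest ratio of the Id family. Its processed signals were 72948 and 57730 in the RNA labelled Bmp4cKO, against 45766 and 51457 in the RNA labelled control, again without overlap. The lowest value of the first group was close to the highest of the second. The log2 ratios were 0.18 and 0.46, a mean of 0.32 ± 0.20 (SD, n = 2; limma adjusted p = 0.37) with a 95% interval of -0.014 to 0.66. Which array showed the larger ratio depended on the normalization: the processed signals themselves gave 0.67 on replicate 1 and 0.17 on replicate 2, and median centring gave -0.54 and 1.35. The probe spans chr4:135700075-135700249 (mm9), a stretch longer than the probe itself.

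Id4, the family member known from neural progenitors and epithelia, had processed signals of 14010 and 18043 in the RNA labelled Bmp4cKO. In the RNA labelled control they were 7255 and 7743, close to each other and well under the other group. The log2 ratios on the arrays were 0.97 and 1.25, a mean of 1.11 ± 0.20 (SD, n = 2; limma adjusted p = 0.036). Id4 was thus 2.16-fold higher in the RNA labelled Bmp4cKO, as the Bmp4 probe was. It passed the test, in 14 of 16 alternative analyses as well. How near the arrays lay to each other depended on the normalization. Median centring gave log2 ratios of 0.76 and 1.57, and no normalization gave 0.12 and 2.18. The Id4 probe is at chr13:48358668-48358727 (mm9).

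**Figure D1:**
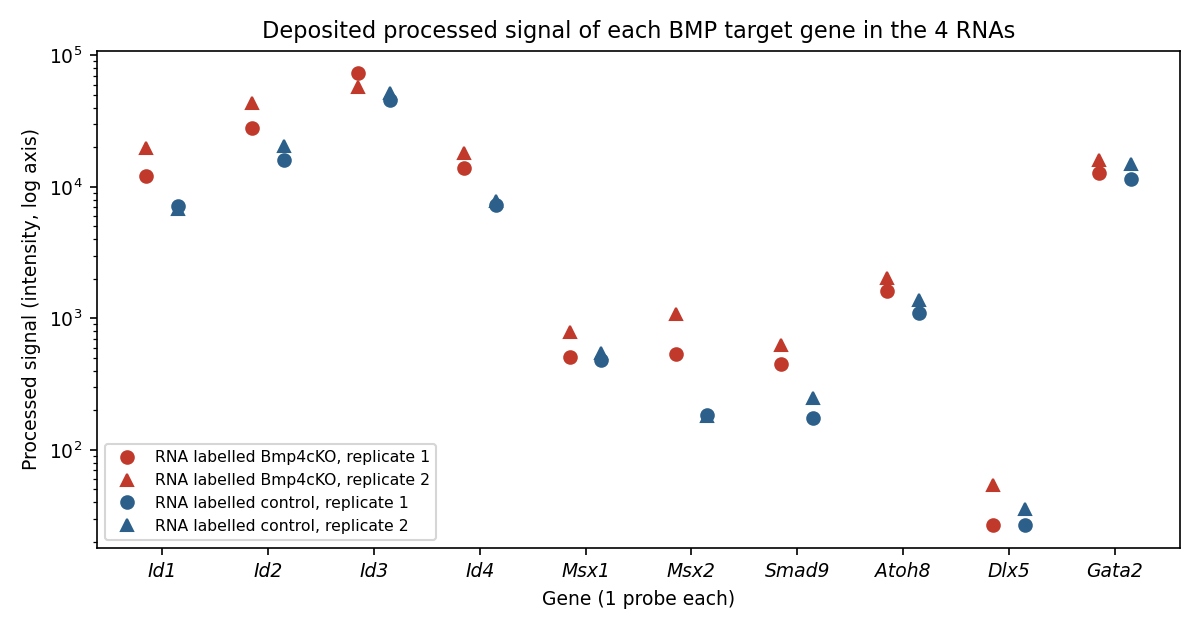
Deposited processed signal (intensity, log axis) of the 10 genes, 1 probe each, in the RNA labelled Bmp4cKO (red) and the RNA labelled control (blue) of replicate 1 (circles) and replicate 2 (triangles). For 7 genes both red points lie above both blue points, while Msx1, Dlx5 and Gata2 overlap. Heights of different genes are not comparable, since each probe has its own brightness.

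Within the Id family the ratios were set against each other on each array, so that a shift equal for all its probes cancels. An effect that varies with the brightness of a probe does not cancel. Id4 exceeded Id3 by 0.79 on both arrays, and Id3 was below Id1 by 0.67 and 1.01 and below Id2 by 0.37 and 0.87 on the log2 scale. Id3 thus had the smallest ratio of the 4 on either array, also with the processed signals, median centring and no normalization. The equal size on the arrays did not hold there, since Id4 exceeded Id3 by 0.28 and 1.05 with the processed signals and by 1.31 and 0.22 with median centring. The pairs of Id4 with Id1 and Id2 turned sign between the arrays. Id4 minus Id1 was 0.12 and -0.22 on replicates 1 and 2, a mean of -0.053 ± 0.24 (SD, n = 2). Id4 minus Id2 was 0.42 and -0.079. Id2 lay below Id1 on both arrays, the differences being -0.30 and -0.14, with a mean of -0.22 ± 0.11 (SD, n = 2). Id4 exceeded the mean of Id1 to Id3 by 0.30 ± 0.20 (SD, n = 2), so that the call for Id4 alone does not show that it differed from Id1 or Id2. The differences between paralogues are given as values without a test, since an exact sign-flip test over 2 arrays cannot give a two-sided p below 0.5. The signals of the 4 probes are given side by side only, because probes differ in brightness and their signals are not RNA amounts per gene.

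**Figure D2:**
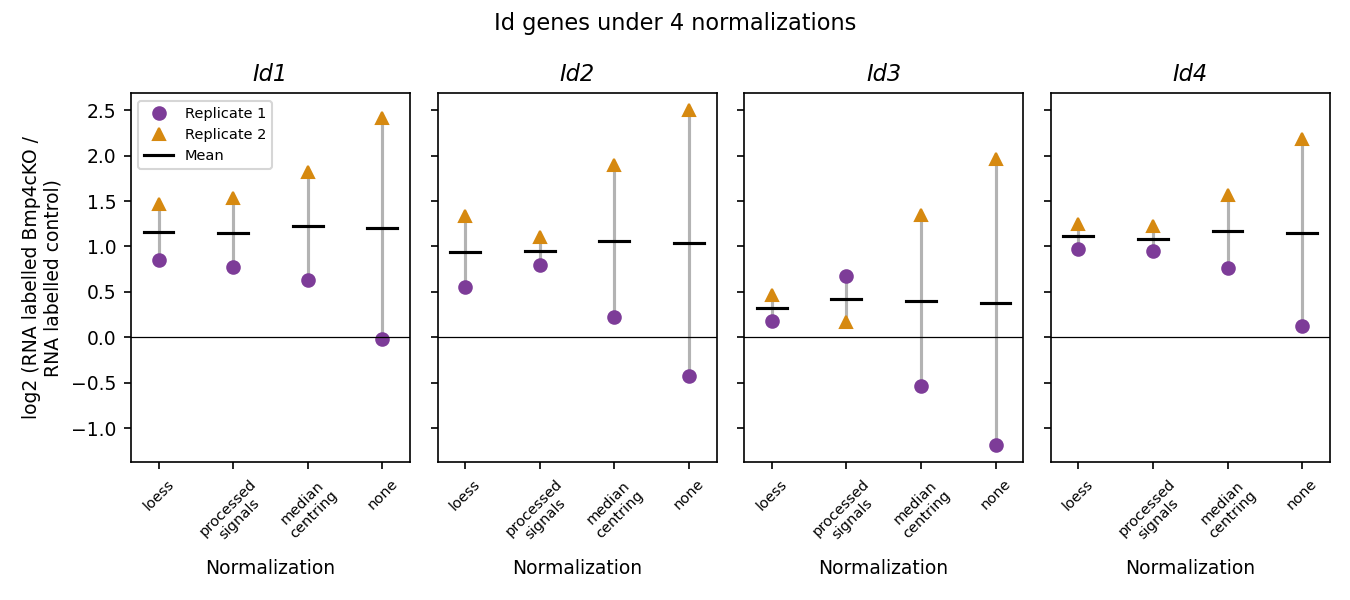
Log2 ratio (RNA labelled Bmp4cKO over RNA labelled control) of Id1 to Id4 on replicate 1 (purple circles) and replicate 2 (orange triangles), with the mean (black line), under loess, the deposited processed signals, median centring and no normalization. The means move little, between 0.32 and 0.42 for Id3 and between 1.08 and 1.17 for Id4. The gap between the arrays is wider with median centring or no normalization, where Id3 is negative on replicate 1. With no normalization Id1 (-0.016) and Id2 (-0.43) are negative on replicate 1 too, and Id4 is 0.12.

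The paired homeobox genes Msx1 and Msx2 stood further apart than any pair of Id genes. Their probes are printed in the same way, to show that they differ.
Msx1: acacttcctcctggttgtcgcttcctaaac
Msx2: cctgtccatctcttcccccagtatattttt
The longest run that these probes shared was 5 bases. Msx2 encodes a homeodomain repressor active in mesenchyme and its epithelial borders. Its processed signals were 531 and 1071 in the RNA labelled Bmp4cKO, against 183 and 182 in the RNA labelled control. The control values were nearly equal, and both values of the other group lay above them. With log2 ratios of 1.36 and 2.34 the mean was 1.85 ± 0.69 (SD, n = 2; limma adjusted p = 0.043), or 3.60-fold, the 39th highest of the 22007 genes. Msx2 passed in 11 of 16 alternative analyses. Its probe, at chr13:53562318-53562377 (mm9), shared a run of 15 bases with 1 other probe on the array.

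Msx1, known as an early mesenchymal target of BMP4 in the tooth bud, had processed signals of 509 and 794 in the RNA labelled Bmp4cKO, against 481 and 546 in the RNA labelled control. These ranges overlapped. Its log2 ratios were 0.056 and 0.56, a mean of 0.31 ± 0.35 (SD, n = 2; limma adjusted p = 0.50). Its 95% interval was -0.11 to 0.72, and that of Msx2 was 1.21 to 2.49. These intervals are unadjusted and made for each gene alone, so they are not a test of Msx2 against Msx1. Msx2 exceeded Msx1 by 1.30 and 1.78 on the arrays, a mean of 1.54 ± 0.34 (SD, n = 2), which is a 2.91-fold difference between the folds. The Msx1 probe is at chr5:38212305-38212364 (mm9). Msx3 was also tested and had a mean log2 ratio of 0.083 (0.0076 and 0.16), a value chosen after it was seen.

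Smad9, which encodes a receptor-activated SMAD that is both a transducer and a target of BMP signalling, was the most even of the 3 called genes. Its processed signals were 449 and 632 in the RNA labelled Bmp4cKO, against 176 and 248 in the RNA labelled control, with no overlap. Log2 ratios of 1.12 and 1.24 gave a mean of 1.18 ± 0.089 (SD, n = 2; limma adjusted p = 0.027), or 2.27-fold. It passed in 13 of 16 alternative analyses, and in a fit of separate channels with no replicate block the limma adjusted p was 0.052. The probe is at chr3:54605068-54605127 (mm9).

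Atoh8, a bHLH gene that responds to BMP signals in endothelium, liver and cartilage, had the smallest spread of the 10 after loess. Its signals of 1622 and 2029 in the RNA labelled Bmp4cKO lay above those of 1094 and 1377 in the RNA labelled control, and the log2 ratio was 0.57 on both arrays. The mean of 0.57 ± 0.0061 (SD, n = 2; limma adjusted p = 0.10) is a 1.48-fold difference and did not pass. The scanner's own error was 0.21 (log2) for each ratio, larger than this spread. Median centring gave ratios of 0.51 and 0.68, and no normalization gave -0.14 and 1.28. With a prior variance that follows the mean signal, Atoh8 passed at a limma adjusted p of 0.028, its only pass in 16 alternative analyses. The probe is at chr6:72156816-72156875 (mm9).

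Dlx5, a distal-less homeobox gene of bone and craniofacial mesenchyme, was the dimmest of the 10, with spots 2.19 to 4.39 times their local background. Its processed signals of 27.0 and 54.0 in the RNA labelled Bmp4cKO overlapped with 26.7 and 35.3 in the RNA labelled control. Log2 ratios of 0.062 and 0.35 gave a mean of 0.21 ± 0.20 (SD, n = 2; limma adjusted p = 0.60), at chr6:6828063-6828122 (mm9). With the deposited processed signals in place of the offset intensities its ratios were 0.013 and 0.61. Gata2, a zinc finger gene of blood stem cells, endothelium and the urogenital tract, was bright, with signals of 12746 and 15861 against 11426 and 14976, and the groups overlapped. It alone of the 10 had opposite signs on the arrays, 0.22 and -0.026, for a mean of 0.10 ± 0.17 (SD, n = 2; limma adjusted p = 0.84). The 95% interval, -0.23 to 0.43, holds changes up to the size of the mean of Id3 or Msx1. Its probe is at chr6:88156362-88156421 (mm9).

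**Figure D3:**
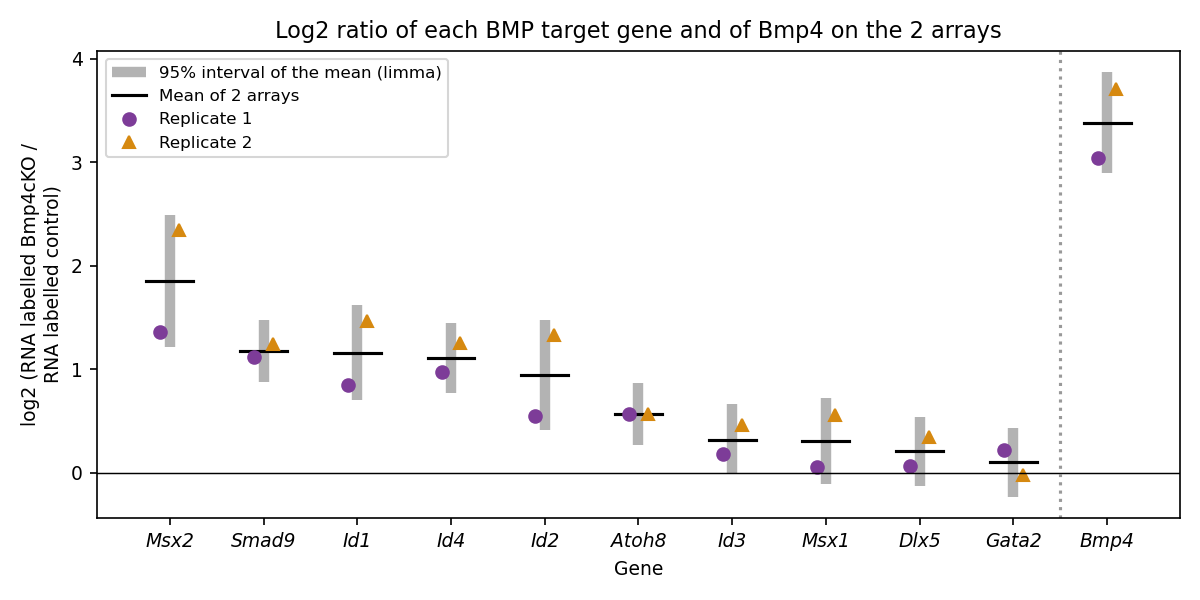
Log2 ratio (RNA labelled Bmp4cKO over RNA labelled control) of the 10 genes and of Bmp4 on replicate 1 (purple circles) and replicate 2 (orange triangles), with the mean of the arrays (black line) and limma's 95% interval of the mean (grey bar). The intervals of Msx2, Smad9, Id1, Id4, Id2 and Atoh8 lie above 0, and those of Id3, Msx1, Dlx5 and Gata2 reach below it. The intervals are unadjusted, and of the 10 genes only Msx2, Smad9 and Id4 were called.

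Here and below, higher means higher in the RNA labelled Bmp4cKO, which is the sign of the Bmp4 probe's ratio. Lower means the opposite sign. Together, 3 of the 10 genes were called higher (limma, adjusted p under 0.05), beside 0.882% of all genes tested. None was called lower, beside 1.01% of all genes, and the 6 of the 10 with an unadjusted p under 0.05 were all higher, beside 7.15% of all genes. In either direction 3192 of the 22007 genes had such a p. Only Msx2 and Smad9 were at least 2-fold higher on both arrays, beside 0.586% of all genes, and 0 were at least 2-fold lower on both, beside 0.618%. On both arrays 9 of the 10 were higher, beside 28.3% of all genes. With median centring these were 7 of the 10 beside 24.5%, and with no normalization 3 of the 10 beside 1.66%. For 7 of the 10 the processed signals of the 2 RNAs labelled Bmp4cKO both lay above those of the controls, beside 16.4% of all genes. The median of the 10 mean ratios was 0.76, or 0.56 on replicate 1 and 0.90 on replicate 2, against -0.0086 over all genes. These genes were chosen as BMP targets with earlier results of these arrays known, so the counts describe them and are not independent evidence of a direction. Ranked from the highest mean of 22007 genes, Smad9 was the 140th, Id1 the 143rd, Id4 the 166th and Id2 the 233rd, whereas Id3 was the 1750th, Msx1 the 1902nd, Dlx5 the 3211th and Gata2 the 5987th. In ureters, which hold several cell types, fewer cells of a type and less RNA per cell cannot be told apart.

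**Figure D4:**
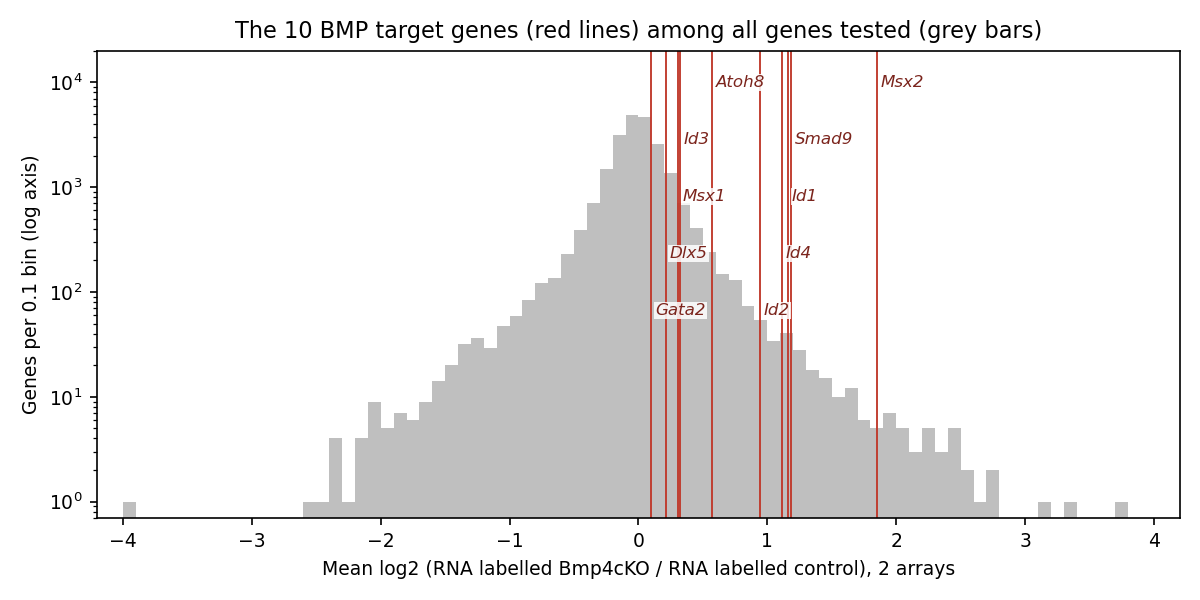
Number of genes (log axis) per 0.1 bin of the mean log2 ratio (RNA labelled Bmp4cKO over RNA labelled control, 2 arrays) for all 22007 genes tested, with a red line at each of the 10 BMP target genes. All 10 lines lie to the right of 0, from Gata2 at 0.10 to Msx2 at 1.85.

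In the authors' deposited table every one of the 10 genes carried a negative signed fold on both arrays. The share of all genes with that sign in the deposited table was not counted. That table lay within 0.01 (log2) of the scanner's folds for 99.5% of bright probes, so its signs and the next count are not independent. With the deposited processed signals, turned by the dye labels, 10 of the 10 were higher on both arrays, beside 29.3% of all genes. The folds were -1.71 and -2.89 for Id1, -1.93 and -2.33 for Id4, -2.90 and -5.88 for Msx2 and -2.55 on both arrays for Smad9 in the authors' deposited table. Id3, at -1.59 and -1.12 in the authors' deposited table, was there larger on replicate 1, whereas its folds after loess were 1.14 and 1.38. Gata2, at -1.12 and -1.06 in the authors' deposited table, kept 1 sign there and did not after loess.

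The stretches upstream of the gene starts are shown for the paralogues and for Smad9, because members of one family stood apart. The table of RefSeq promoters used here is on build GRCm38.p6, a different build from that of the probes. Of the 10 genes 8 matched it, all but Id1 and Dlx5, with 9 promoters in all since Gata2 has a pair of starts there. Each line gives the 250 bases before the start, read 5′ to 3′ on the gene's own strand. Capitals mark GGCGCC, the GC-rich element bound by BMP-activated SMADs, and CAGAC or its reverse complement GTCTG, the SMAD binding element. They were searched on both strands, and no match of one overlapped the other.
Id2 chr12:25096093-25096342, minus strand: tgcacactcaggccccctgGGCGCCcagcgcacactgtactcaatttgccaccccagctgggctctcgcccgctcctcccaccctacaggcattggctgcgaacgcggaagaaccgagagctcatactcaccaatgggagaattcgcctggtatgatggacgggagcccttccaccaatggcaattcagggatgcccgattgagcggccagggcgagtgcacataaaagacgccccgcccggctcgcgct
Id3 chr4:136143572-136143821, plus strand: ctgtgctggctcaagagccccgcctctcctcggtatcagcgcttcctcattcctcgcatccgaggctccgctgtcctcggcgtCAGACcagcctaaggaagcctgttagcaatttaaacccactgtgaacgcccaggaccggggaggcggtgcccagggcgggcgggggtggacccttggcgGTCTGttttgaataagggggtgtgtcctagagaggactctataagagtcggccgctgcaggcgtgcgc
Id4 chr13:48260866-48261115, plus strand: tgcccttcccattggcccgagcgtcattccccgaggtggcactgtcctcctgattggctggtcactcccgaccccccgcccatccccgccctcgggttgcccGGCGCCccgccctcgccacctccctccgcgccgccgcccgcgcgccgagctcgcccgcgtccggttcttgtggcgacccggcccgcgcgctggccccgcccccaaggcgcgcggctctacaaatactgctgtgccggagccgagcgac
Msx1 chr5:37824586-37824835, minus strand: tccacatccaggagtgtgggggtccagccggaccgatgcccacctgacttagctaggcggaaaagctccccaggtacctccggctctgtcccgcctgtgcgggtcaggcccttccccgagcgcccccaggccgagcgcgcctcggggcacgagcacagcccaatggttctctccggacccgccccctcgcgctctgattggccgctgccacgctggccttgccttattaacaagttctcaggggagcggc
Msx2 chr13:53472781-53473030, minus strand: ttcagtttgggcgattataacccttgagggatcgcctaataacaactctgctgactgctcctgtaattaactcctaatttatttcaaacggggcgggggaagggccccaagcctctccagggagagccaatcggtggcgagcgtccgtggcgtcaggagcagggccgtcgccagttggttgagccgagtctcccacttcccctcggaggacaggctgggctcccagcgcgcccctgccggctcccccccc
Smad9 chr3:54755332-54755581, plus strand: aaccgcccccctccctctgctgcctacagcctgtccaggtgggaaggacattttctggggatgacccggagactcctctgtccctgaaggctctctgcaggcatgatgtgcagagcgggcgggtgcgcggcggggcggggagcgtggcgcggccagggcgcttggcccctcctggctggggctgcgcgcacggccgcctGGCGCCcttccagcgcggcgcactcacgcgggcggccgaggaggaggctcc

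GGCGCC was in 4 of the 9 promoters, beside 9.59% of 32851 mouse promoters of the same length. It began 231 bases before the start in Id2, 148 in Id4, 51 in Smad9 and 38 at one of the Gata2 starts. CAGAC was in 2 of the 9, Id3 and the same Gata2 promoter, beside 42.2% of all promoters. The promoters of Msx1, Msx2 and Atoh8 held neither in this window. The 9 were rich in G and C, from 61.6% to 75.6% against a median of 52.4% over all promoters, and the part of base composition in the count of matches was not tested. A match is a description of letters only. Called genes stood on both sides, since Id4 and Smad9 had a GGCGCC and Msx2 had none, and Gata2, with the smallest mean ratio of the 10, also had one.

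Other genes of the pathway were taken from lists, each read beside the median of all genes, -0.0086. Of 19 ligands and receptors, Bmp4 was called higher and Bmp2, a closely related ligand, was called lower. Bmp2 had a mean log2 ratio of -1.22 ± 0.018 (SD, n = 2; limma adjusted p = 0.024), opposite in sign to the Bmp4 probe, so the ligands did not share a direction. The list's median was -0.16, or -0.0076 and -0.23 on the arrays, with 6 members higher and 10 lower on both arrays. In the SMAD cascade between receptor and target, 0 of 14 genes were called and 3 had an unadjusted p under 0.05 (limma), with a median of 0.026, or 0.028 and 0.079 on the arrays. The means furthest from 0 in that list were those of Zeb2, a SMAD-binding repressor, at 0.65 (0.61 and 0.68), and of Tob1, a BMP antagonist inside the cell, at 0.35 (-0.20 and 0.89).

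Of 20 other genes known to respond to BMP, 17 were tested, 2 were called higher and 0 lower, and 9 had an unadjusted p under 0.05. Their median was 0.39, under that of the 10 genes. Gata6, a zinc finger gene of smooth muscle and endoderm, had a mean of 1.09 ± 0.20 and log2 ratios of 1.24 and 0.95 (SD, n = 2; limma adjusted p = 0.036). Smad6, the inhibitory SMAD that BMP signalling induces as feedback, had 0.90 ± 0.094, with 0.83 and 0.97 (SD, n = 2; limma adjusted p = 0.042). Bambi, a decoy receptor, Grem1, a secreted antagonist, and Runx2, a bone regulator, were not well above background in any channel. Gata6 was also the only called gene among the 9 tested of 13 paralogues of the Msx, Dlx, Gata and Atoh genes, whose median was 0.29.

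The bHLH factors that Id proteins bind did not share a direction. Of 15 listed, 14 were tested, 0 were called higher and 1 lower, and 6 had an unadjusted p under 0.05, with 4 higher and 4 lower on both arrays. The median was 0.074, or 0.14 on replicate 1 and -0.083 on replicate 2. Myog, a skeletal muscle factor, had a mean log2 ratio of -0.89 ± 0.0097 (SD, n = 2; limma adjusted p = 0.040), opposite in sign to the Bmp4 probe.

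**Figure D5:**
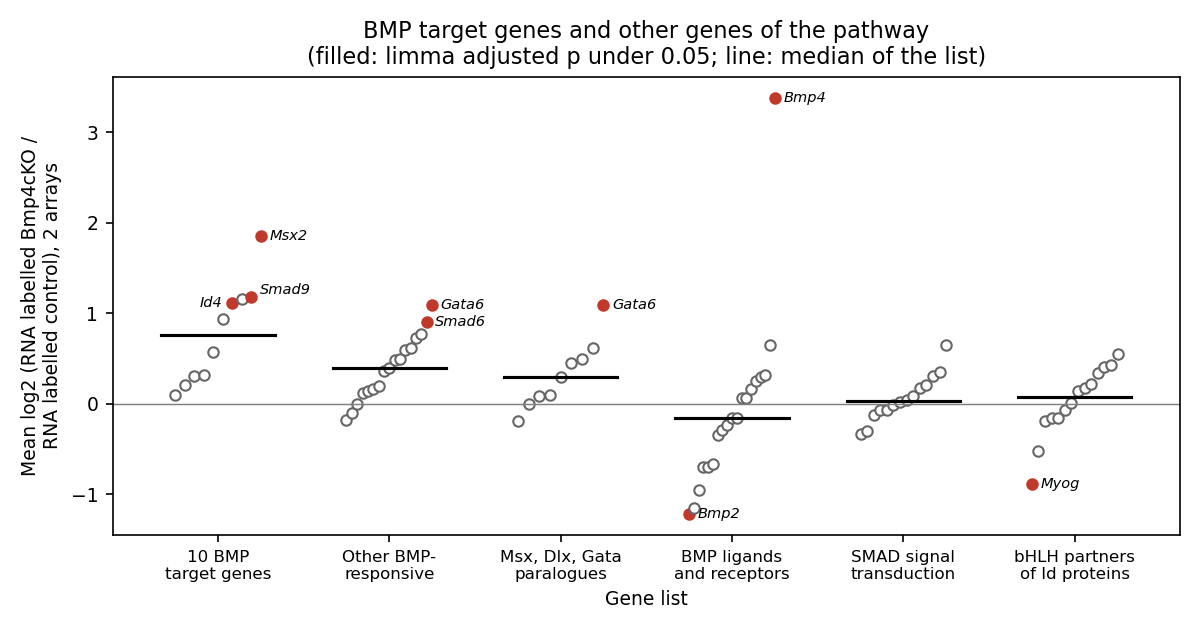
Mean log2 ratio (RNA labelled Bmp4cKO over RNA labelled control, 2 arrays) of each tested gene of the 10 BMP targets and of 5 further lists, with filled points for genes with a limma adjusted p under 0.05 and a black line at the list's median. The medians are 0.76 for the 10 targets, 0.39 for other BMP-responsive genes, 0.29 for paralogues, -0.16 for ligands and receptors, 0.026 for the SMAD cascade and 0.074 for bHLH partners.

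Markers of the cell types in the tissue moved with the same comparison. Higher again means higher in the RNA labelled Bmp4cKO, as the Bmp4 probe was. Of 13 urothelial markers 7 were called higher and 0 lower, with a median of 0.86, among them the uroplakin genes Upk1b at 3.72, Upk3a at 2.48, Upk2 at 2.41 and Upk1a at 2.25. The markers did not all share this direction. Of the 13, 10 were higher and 1 was lower on both arrays, and their means ran from -0.71 to 3.72. Their summed processed signal was 105598 and 112380 in the RNA labelled Bmp4cKO, against 52170 and 58118 in the RNA labelled control. Of 7 smooth muscle markers 3 were called higher, the contractile genes Myh11 at 2.48, Actg2 at 2.31 and Cnn1 at 2.14, with a median of 1.29 (0.84 and 1.77 on the arrays) and sums of 31532 and 46881 against 19456 and 16838. Both medians were above that of the 10 genes, and the part of these markers in the ratios of the 10 genes was not tested.

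Tbx18 was the only called gene of 8 mesenchymal markers (median 0.23, or 0.50 and 0.037 on the arrays), whose sums of 77091 and 69835 exceeded 53802 and 68836. Of 12 endothelial markers, which mark cells with strong Id1 and Id3 expression, 0 were called, 6 had an unadjusted p under 0.05 (limma) and 10 were higher on both arrays. The median was 0.31, Sox17 had 0.66 and Cldn5 0.62, and the sums were 55457 and 70837 against 47479 and 50342. Markers of neurons and Schwann cells went the other way, with 4 of 9 called lower and a median of -0.89. Among them the means were -1.80 for Prph, -1.52 for Tubb3 and -0.89 for Elavl3, and the sums were 5455 and 4646 against 8424 and 9424. Of 9 kidney and ureteric bud tip markers 4 were called lower (median -0.78, or -0.52 and -1.04), namely Wnt9b at -1.97, Wt1 at -1.34, Ret at -1.20 and Lhx1 at -1.06, with sums of 16755 and 21592 against 21548 and 29766.

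Among macrophage and leukocyte markers 0 of 8 were called and 2 had an unadjusted p under 0.05 (limma), with Ptprc at -0.80 and Cd14 at 0.62, a median of 0.036 (0.13 and -0.033) and sums of 8955 and 8676 against 8596 and 8684. Cartilage markers had 0 of 3 called and 1 with an unadjusted p under 0.05 (limma), with Col9a1 at 0.50 and Col2a1 at 0.14, a median of 0.14, sums of 15535 and 22243 against 12101 and 14678, and Matn1 not well above background. Of 5 blood markers 0 were called and 0 had an unadjusted p under 0.05 (limma), with a median of 0.23 (0.21 and 0.37). Their sums of 102752 and 182183 against 154874 and 80552 went in opposite directions on the arrays, as did the globin gene Hbb-bt, at -0.77 and 1.49, while Gata1 had 0.29. The part of these cell types in the ratios of the Id, Msx and other genes was not tested.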

How the data were processed

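Gene expression was measured on 2 Agilent two-colour arrays that share 1 slide and 1 scan. Per the file headers, the authors quantified spots with Feature Extraction 10.7.3.1 and placed probes on mm9. The deposited spot, background and processed signals are intensities, the last of them detrended and dye-normalized, and the deposited log ratio is log10 of red over green. The authors also deposited a table with 1 score for each probe. Set against the scanner values it was a signed fold, within 0.01 (log2) of the scanner's for 99.5% of bright probes, signed as red over green (replicate 1) or green over red (replicate 2), and a median of 1 in both columns. No source used here states its direction.

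Background was corrected by normexp (offset 50) and ratios by loess within arrays, with control and outlier spots at weight 0, in limma 3.58.1 (R 4.3.3). Ratios were turned by the dye labels. Probes were named through RefSeq (31001 of 39429, the other 8428 by the array). A probe passed where it was well above background on both arrays in at least 1 genotype, and a gene took its brightest passing probe. Ratios were fitted with lmFit and eBayes (3.98 prior and 1 residual degrees of freedom) and adjusted by Benjamini-Hochberg over 22007 genes. On simulated data the script was tested for sign and recovery.

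The 10 genes and all lists were chosen with earlier results of these data known. Named genes are the 10, Bmp4, Tbx18, 3 sex-linked genes and, per list, up to 4 called genes or otherwise the 2 with the largest means. A gene that this rule takes is not reported here. Msx3, and the list genes Bambi, Grem1, Runx2 and Matn1 that were not above background, fall outside it and were named after their values were seen. Alternatives changed background, offset, normalization, filter, probe choice, pairing, prior, source of ratios, replicates and sex-linked genes.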

Additional observations from a re-analysis of the deposited data

Results flagged for a closer look

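Some values had opposite signs on replicate 1, labelled female, and replicate 2, labelled male, which also differ in dye orientation. None of these differences was tested. Replicate 2 minus replicate 1 was -0.25 on the log2 scale for Gata2, 2.25 for the globin gene Hbb-bt and 1.09 for Tob1. Among paralogues it was -0.49 for Id4 minus Id2 and -0.34 for Id4 minus Id1. For list medians it was -0.22 for the bHLH partners of Id proteins and -0.16 for macrophage and leukocyte markers.

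Outside the comparison, since their probes were above background in 1 RNA only, the Y-linked genes Ddx3y and Eif2s3y had processed signals of 2720 and 2741 in the RNA labelled control of replicate 2.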

How the results depend on the processing

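The mean log2 ratio of each of the 10 genes was above 0 in all 16 alternatives that used both arrays, except that Dlx5 was not tested with a minimum mean processed signal of 100. With 1 probe per gene, changes of filter, probe choice, pairing or prior, and leaving out sex-linked genes, could not move these means. Only changes of background, offset, normalization or source of ratios could. Among these, the processed signals and the authors' deposited values gave the same means, so they were not independent alternatives. Without 1 replicate Gata2 ranged from -0.026 to 0.22, Id4 minus Id2 from -0.079 to 0.42 and Id4 minus Id1 from -0.22 to 0.12, and the number of the 10 at least 2-fold higher from 2 to 5.

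Called higher were 0 of the 10 genes with median centring (5 with an unadjusted p under 0.05, limma), 0 with no normalization (1 with an unadjusted p under 0.05) and 5 with a trended prior. Over all genes, 194 were called higher and 222 lower. The counts were 341 and 395 with plain subtraction, 419 and 491 with offset 0, 334 and 391 with scaling between arrays, and 572 and 644 with the trended prior. With median centring they were 0 and 0 (1762 genes with an unadjusted p under 0.05) and with no normalization 0 and 1 (108 such genes), where the number of the 10 at least 2-fold higher on both arrays was 0. The cause was not tested. Bmp4 itself was not called in these last 2 settings, with limma adjusted p of 0.29 and 0.28. The means stayed close, at 3.38 and 3.36 for Bmp4, 1.85 and 1.83 for Msx2, 1.17 and 1.15 for Id4 and 1.18 and 1.16 for Smad9. A dye effect equal on both arrays cancels in these means, because the dyes were swapped. Their closeness therefore says little about the normalization.

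Msx2 also missed the threshold with the mean of passing probes (limma adjusted p = 0.053), a robust prior (0.076) and the authors' deposited values (0.05 after rounding). Over its alternatives the adjusted p ranged from 0.0051 to 1 for Msx2, 0.0042 to 1 for Smad9, 0.0093 to 1 for Id4 and 0.014 to 1 for Id1. Each array pairs 1 RNA of each genotype, so the ratio within an array is the replicate block. In separate channels with no replicate block Smad9 had a mean of 1.18 and did not pass (0.052), while Id1 passed (0.046), and with a dye term Id1 passed at 0.017. Leaving out genes of the sex chromosomes, which was chosen after seeing the data, changed no call among the 10. Dlx5, with spots under 5 times background, is the gene whose ratio is least well measured.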
